A study of Mus musculus with 2 samples.

Results

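The SOX transcription factor genes were examined in TUBO cells as a set of 10 genes, Sox10, Sox9, Sox8, Sox4, Sox11, Sox12, Sox2, Sox5, Sox6 and Sox13, out of 31017 genes in the count table. They were taken by gene symbol from that table. The set was chosen by family membership together with the CPM levels measured in these same libraries, so those levels are a description and no test is made of them. TUBO is a mouse mammary carcinoma line that descends from a tumour of a BALB/c mouse carrying an activated rat Her2/neu transgene under a mammary tumour virus promoter, so all values come from 1 cell line that shares this transgene. The cells had no treatment and grew flat on plastic in medium with serum. There was 1 group of 2 libraries of polyadenylated RNA, replicate 1 with 35453278 counts and replicate 2 with 34098259, and no condition was compared with another. The labels do not say whether the libraries came from separate cultures, so the spread between them may be technical.

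SOX proteins bind DNA through an HMG box, a domain that grips the minor groove and bends the helix, and they usually act with a partner factor bound beside them. The family is divided into groups A to H by the sequence of the box. SoxE proteins (Sox8, Sox9, Sox10) specify neural crest, glia, melanocytes and cartilage, and Sox9 and Sox10 also mark progenitor cells of the mammary gland. SoxC proteins (Sox4, Sox11, Sox12) activate transcription in progenitors of many tissues, SoxD proteins (Sox5, Sox6, Sox13) lack an activation domain of their own and modulate SoxE and SoxC proteins, and SoxB1 proteins such as Sox2 maintain stem cells.

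The box is where the genes are most alike, so its coding sequence shows how far reads of 1 member can be told from those of another. The lines give the opening 90 coding bases of the box in the SoxE and SoxC members (GENCODE M21 transcripts, GRCm38), in lower case where the 3 genes of a group have the same base and in capitals where they do not.
Sox10: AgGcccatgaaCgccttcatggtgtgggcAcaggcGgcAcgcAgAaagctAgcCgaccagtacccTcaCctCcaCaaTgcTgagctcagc
Sox9: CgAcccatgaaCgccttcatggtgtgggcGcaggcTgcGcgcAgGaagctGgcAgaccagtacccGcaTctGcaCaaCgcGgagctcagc
Sox8: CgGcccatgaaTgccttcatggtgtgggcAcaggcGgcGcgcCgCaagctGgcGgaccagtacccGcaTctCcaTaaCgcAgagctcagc
Sox4: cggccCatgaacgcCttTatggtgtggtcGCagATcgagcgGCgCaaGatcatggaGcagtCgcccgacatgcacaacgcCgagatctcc
Sox11: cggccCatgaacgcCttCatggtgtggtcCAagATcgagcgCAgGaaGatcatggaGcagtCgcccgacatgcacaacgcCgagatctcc
Sox12: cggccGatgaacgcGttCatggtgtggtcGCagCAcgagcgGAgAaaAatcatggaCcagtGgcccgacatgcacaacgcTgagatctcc
These stretches lie at chr15:79163312-79163401 (exon 3 of 5 of the Sox10 transcript, minus strand), chr11:112782903-112782992 (exon 1 of 3 of Sox9, plus strand), chr17:25570133-25570222 (exon 1 of 3 of Sox8, minus strand), chr13:28952752-28952841 (Sox4, minus strand), chr12:27342169-27342258 (Sox11, minus strand) and chr2:152397486-152397575 (Sox12, minus strand), the last 3 in genes whose transcript has 1 exon. Of the 90 bases, 16 differed among the SoxE genes and 14 among the SoxC genes. Over 210 bases of the box, the 9 member pairs within a group were 81.9% to 91.0% identical and the 36 pairs between groups 52.9% to 75.2%. The longest run of bases shared by any member pair was 48, between Sox4 and Sox11, and the longest within the SoxE group was 26. In these reference transcripts no 50-base window of Sox10, Sox9, Sox11, Sox12, Sox2, Sox6 or Sox13 occurred in another gene's transcript. Windows of Sox4, Sox8 and Sox5 also occurred in overlapping genes of the opposite strand, described with their levels, and those of Sox5 in Fcgr2b, Acot4 and Gm8176 too.

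Levels are given as CPM, counts scaled to library size with the trimmed mean of M-values, and detection means that neither library fell under 1 CPM. In bulk RNA, fewer cells with a transcript and less transcript per cell cannot be told apart. Levels of different genes are compared as CPM per kb of exonic length. Of the 10 members 8 were detected, where 37.7% of all genes in the table and 50.6% of protein-coding genes were detected by the same rule. Of the 10 remaining mouse SOX genes 2 were detected. The 20 SOX genes took 33545 counts in replicate 1 and 30885 in replicate 2, or 0.0926% ± 0.00286 (SD, n = 2) of all counts, and the 10 members held 98.9% ± 0.0381 of these family counts. The floor used for a gene with 0 counts is 3 counts, or 0.0842 CPM (replicate 1) and 0.0885 CPM (replicate 2), and the upper end of the two-sided 95% Poisson interval at 0 counts is 0.103 and 0.109 CPM.

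Sox10 stood far above the rest of the family. Sox10, the SoxE factor of neural crest and of mammary progenitors, had 19362 counts in replicate 1 and 17672 in replicate 2, which are 543 CPM (95% Poisson interval 536 to 551) and 521 CPM (513 to 529). Divided by its 3051 exonic bases the level was 178 and 171 CPM per kb, a mean of 174 ± 5.13 (SD, n = 2), which placed it 150th of 21721 protein-coding genes. The gene lies on chromosome 15 (79154908 to 79165240, minus strand, GRCm38), and no annotated gene overlaps it. Sox10 alone took 57.7% of the SOX family counts in replicate 1 (95% Wilson interval 57.2% to 58.2%) and 57.2% in replicate 2 (56.7% to 57.8%). After division by exonic length its share was 70.1% ± 0.0956 of the family, so the larger part of the SOX signal in both libraries came from this 1 gene.

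The other SoxE genes were detected at lower levels. Sox9, the factor that directs cartilage and that also acts in mammary luminal progenitors, had 2662 and 2465 counts, or 74.7 and 72.7 CPM. Its level per length was 18.1 and 17.6 CPM per kb (mean 17.8 ± 0.342). Sox8, the least studied SoxE factor and one that can stand in for Sox10 in part during glial development, had 798 and 761 counts, or 22.4 CPM in each library, and 7.19 ± 0.0115 CPM per kb. In CPM per kb Sox10 exceeded Sox9 by a factor of 9.86 in replicate 1 and 9.72 in replicate 2 (mean 9.79 ± 0.100) and Sox8 by a factor of 24.3 ± 0.752. Within the SoxE group Sox10 made up 87.5% ± 0.178 of the level per length, Sox9 8.94% ± 0.0731 and Sox8 3.61% ± 0.104. Of the 50-base windows of Sox8, 8.99% also occurred in the antisense gene 2810468N07Rik, which shares 329 exonic bases with it and has no row in the table.

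**Figure D1:**
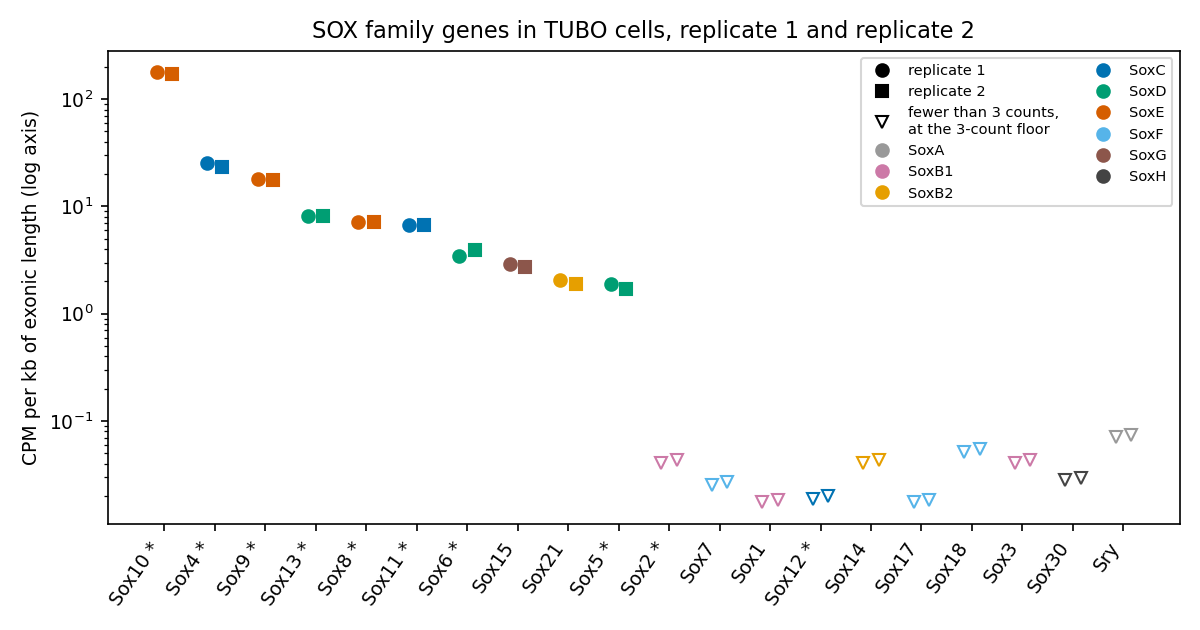
Level of each of the 20 SOX genes in CPM per kb of exonic length (log axis) in replicate 1 (circles) and replicate 2 (squares), coloured by SOX group; members of the set carry an asterisk and open triangles mark genes with fewer than 3 counts, drawn at the 3-count floor. Sox10 lies at 178 and 171 CPM per kb, above Sox4 at 25.4 and 23.3, and Sox12 and Sox2 lie with the undetected genes.

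Of the SoxC genes, Sox4 and Sox11 were detected and Sox12 had no count. Sox4, which acts in progenitor cells and in mammary development, had 4343 and 3792 counts, or 122 and 112 CPM, and a level of 24.4 ± 1.48 CPM per kb. The antisense lincRNA gene Gm26735 overlaps 2616 of the exonic bases of Sox4 (54.6%) and had 0 counts in both libraries. Whether reads were counted by strand is not given in the sources used here, so the level of Sox4 is uncertain. Sox11, a SoxC factor best known from embryonic neurons, had 1987 and 1878 counts, or 55.7 and 55.4 CPM, and a level of 6.69 ± 0.0316 CPM per kb over a transcript of 8311 bases in 1 exon. In CPM per kb of exonic length Sox4 exceeded Sox11 by a factor of 3.64 ± 0.204, which was 1.89 ± 0.106 with coding length and 2.10 ± 0.118 undivided.

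Sox12 (chromosome 2, 152393611 to 152398063), the third SoxC gene, had 0 counts in both libraries. No gene in the annotation overlaps it, and its transcript shares no 50-base window with another gene. Against the limit of 3 counts per library, Sox4 was at least 1174-fold higher and Sox11 at least 335-fold higher than Sox12 per exonic base. Within the SoxC group Sox4 therefore made up 78.4% ± 0.947 of the level per length and Sox11 21.6% ± 0.947.

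All 3 SoxD genes were detected at moderate levels. Sox13, a SoxD factor known from lymphoid and neural cells, had 1254 and 1197 counts, or 35.2 and 35.3 CPM, and 8.17 ± 0.0186 CPM per kb. Sox6, which pairs with Sox5 in cartilage, had 1807 and 1964 counts, or 50.7 and 57.9 CPM, and 3.66 ± 0.344 CPM per kb. Sox5 had 962 and 831 counts, or 27.0 and 24.5 CPM, and 1.79 ± 0.122 CPM per kb. Per length Sox13 thus lay highest, at 60.0% ± 0.921 of the group, above Sox6 at 26.9% ± 2.05 and Sox5 at 13.2% ± 1.13. Sox5 and Sox6 are annotated with 14 and 16 transcripts and with 14376 and 14832 exonic bases in all, of which the longest transcript holds 7243 and 8668, so their levels per length depend on the length chosen. Of the antisense genes in the Sox5 locus, Sox5os1 overlaps 1330 exonic bases of Sox5 and had 3 and 1 counts.

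Sox2 and most of the SOX genes outside the set were at or near 0. Sox2 (chromosome 3, 34650405 to 34652461), the SoxB1 factor of pluripotent and neural stem cells, had 0 counts in replicate 1 and 1 in replicate 2. Sox1 and Sox3, its group relatives, had none. The SoxF genes, which act in endothelium, gave 1 count of Sox7 in replicate 1 and none of Sox17 or Sox18. Sox14, Sox30 and Sry also had none. The 2 detected genes outside the set were Sox21 (279 and 244 counts, 7.51 ± 0.447 CPM), a SoxB2 repressor, and Sox15 (90 and 80 counts, 2.44 ± 0.117 CPM), the SoxG gene. The lincRNA gene Gm4675 (48 and 33 counts) shares 713 exonic bases with Sox21 on the opposite strand, and the protein-coding gene Mpdu1 (1650 and 1452 counts) shares 31 with Sox15. All 3 SoxE and all 3 SoxD genes were thus detected, with 2 of 3 SoxC genes, 1 of 2 SoxB2 genes and the SoxG gene, and no gene of the SoxA, SoxB1, SoxF or SoxH group.

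In CPM per kb of exonic length the 8 detected members fell in the order Sox10, Sox4, Sox9, Sox13, Sox8, Sox11, Sox6 and Sox5. The ranges over the 2 libraries did not overlap for any neighbours in this order. The step from Sox10 to Sox4 was a factor of 7.17 ± 0.225 per exonic length, 4.30 ± 0.135 per coding length and 4.56 ± 0.143 undivided. The smallest step, from Sox8 to Sox11, was 1.08 ± 0.00680 per exonic length. The 95% Poisson intervals of Sox8 and Sox11 overlapped, and those of the other 6 neighbouring pairs did not. By mean level the places of Sox10, Sox4 and Sox9 were the same under every length tried and with no division. With coding length, however, Sox9 exceeded Sox11 by a factor of only 1.03 ± 0.0150, and their 95% Poisson intervals overlapped. Sox5 was last under each length and next to last with no division, and the places of the other 4 members changed with the length. With coding length the order after Sox9 was Sox11, Sox6, Sox13, Sox8 and Sox5, and Sox13 then stood at a factor of 0.880 ± 0.0807 of Sox6, against 2.24 ± 0.206 per exonic length.

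**Figure D2:**
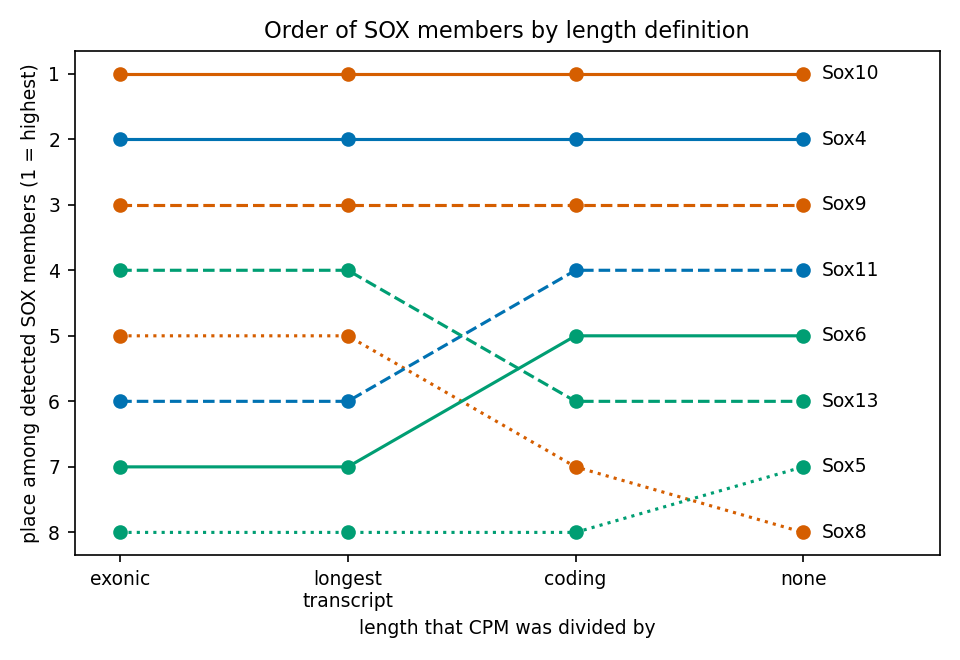
Place of the 8 detected members (1 = highest mean level over the 2 libraries) when CPM is divided by exonic length, by the longest transcript, by coding length or by nothing; colours as for the SOX groups, with line style separating genes of a group. Sox10, Sox4 and Sox9 keep places 1, 2 and 3 in all 4 columns, and the lines of the other 5 members cross.

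The members were compared between the 2 libraries with a two-sided exact binomial test of each gene's counts, adjusted by the Benjamini-Hochberg method over the 13336 genes with enough counts. The test covers counting error only and compares these libraries, not conditions. Of the 8 members tested 3 passed at 0.05, where 8.13% of all genes tested did, and 13.2% of the 7282 genes with at least as many counts as Sox8, the lowest member. Sox10 was lower in replicate 2 by a log2 ratio of -0.06 (adjusted p = 0.00195 in the exact binomial test) and Sox4 by -0.12 (adjusted p = 0.00321), and 4.46% of all genes tested were called lower. Sox6 was higher in replicate 2 by 0.19 (adjusted p = 0.00150 in the exact binomial test), where 3.67% were called higher. Sox5 had a log2 ratio of -0.14 and did not pass (adjusted p = 0.226 in the exact binomial test). The other 4 members lay between -0.04 and 0.00, all with an adjusted p of 0.677 or more in that test.

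These differences were small beside the levels. In percent, Sox10 was lower in replicate 2 by 4.07, Sox4 by 8.23 and Sox6 higher by 14.2. Among the 7282 genes with at least as many counts as Sox8, the median size of the log2 ratio was 0.05. The 95th percentile was 0.15, which Sox6 exceeded while Sox10 and Sox4 did not. These genes have no upper limit of counts, so they are not matched to the depth of Sox10 or Sox4. When the spread between the libraries was allowed for with a common dispersion (a coefficient of variation of 3.12%), edgeR's exact test called 0 of the 8 members, where it called 0.142% of all genes, and only Sox6 had an unadjusted p under 0.05 (0.0158, adjusted p = 0.742). That dispersion was estimated from the same differences.

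**Figure D3:**
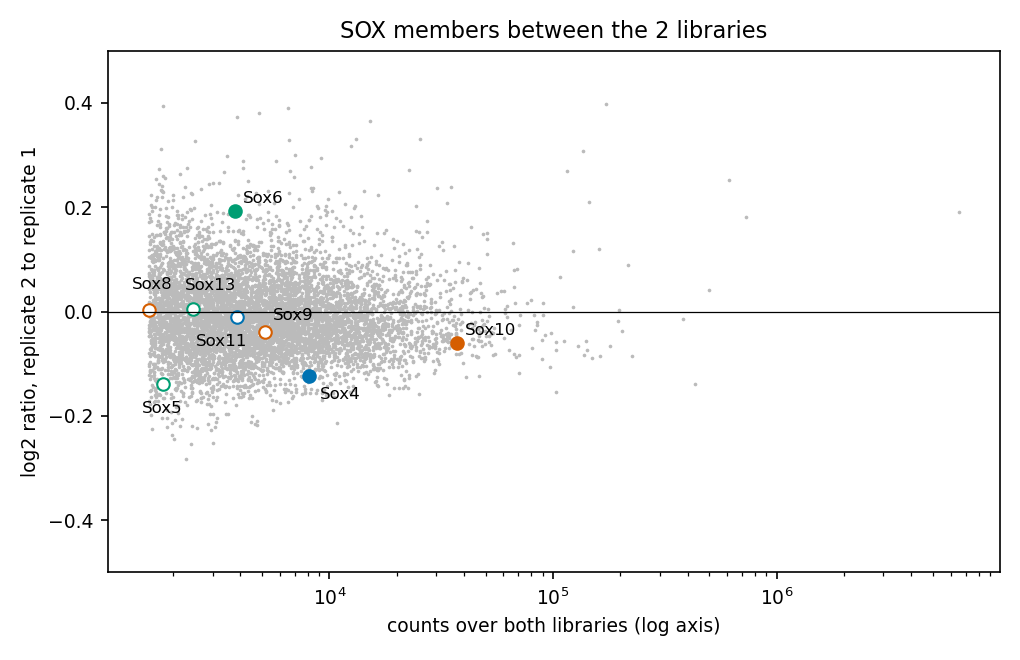
Log2 ratio of replicate 2 to replicate 1 against counts over both libraries (log axis) for the 7282 genes with at least as many counts as Sox8 (grey points), with the 8 detected members as circles coloured by group, filled where the exact binomial test passed. Sox6 lies at 0.19, Sox4 at -0.12 and Sox10 at -0.06, the last far to the right at 37034 counts.

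Genes known as targets of SOX10 in glia, melanocytes or enteric neurons were detected in part. Of 21 such genes 6 were detected (28.6%, below the 50.6% of all protein-coding genes), and their median log2(CPM + 1) was 0.08, against 1.22 over all protein-coding genes. The highest per length were Erbb3, the neuregulin receptor gene (57.9 ± 1.31 CPM per kb), Gjb1, a gap junction gene of myelinating Schwann cells (33.0 ± 0.135), Cdh19, a cadherin gene of Schwann cell precursors (10.8 ± 0.203), and Mbp, a myelin gene (5.57 ± 0.268). In counts Gjb1 had 2000 and 1914, Cdh19 1677 and 1554, and Mbp 1738 and 1545. Of the 21 genes 9 had no count. Sox10 exceeded Erbb3 by a factor of 3.01 ± 0.157 in CPM per kb of exonic length, 4.39 ± 0.229 with coding length and 1.53 ± 0.0795 undivided.

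Genes known as targets of SOX9 in cartilage or Sertoli cells were detected in 9 of 15 cases (60.0%, beside 50.6% of all protein-coding genes). Highest per length were Ptgds, a prostaglandin D synthase gene (52.5 ± 0.109 CPM per kb), the collagen gene Col9a3 (41.4 ± 0.727), Cnmd, the gene of chondromodulin (39.1 ± 0.844), and the collagen gene Col11a1 (33.5 ± 0.0914, from 15233 and 14438 counts). The list spans a wide range. Of its other collagen genes, Col9a1 stood at 101 ± 1.90 CPM (19.9 ± 0.376 CPM per kb), Col11a2 at 12.3 ± 0.535 CPM and Col9a2 at 6.44 ± 1.01 CPM. Col2a1 was low, with 43 and 51 counts (1.36 ± 0.210 CPM). Among other cartilage genes on the list, Acan had 2 and 0 counts, and Hapln1, Matn1 and Matn3 had none. Of the 5 genes known as SOXC targets, Ezh2, a histone methyltransferase gene, stood at 110.5 ± 0.751 CPM and Tead2 at 2.03 ± 0.214 CPM, Dcx had 1 and 0 counts, and Tubb3 and Stmn2 had none. Whether SOX proteins drive any of these genes in TUBO cells was not measured. The difference in share between the SOX10 and SOX9 lists was not tested.

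**Figure D4:**
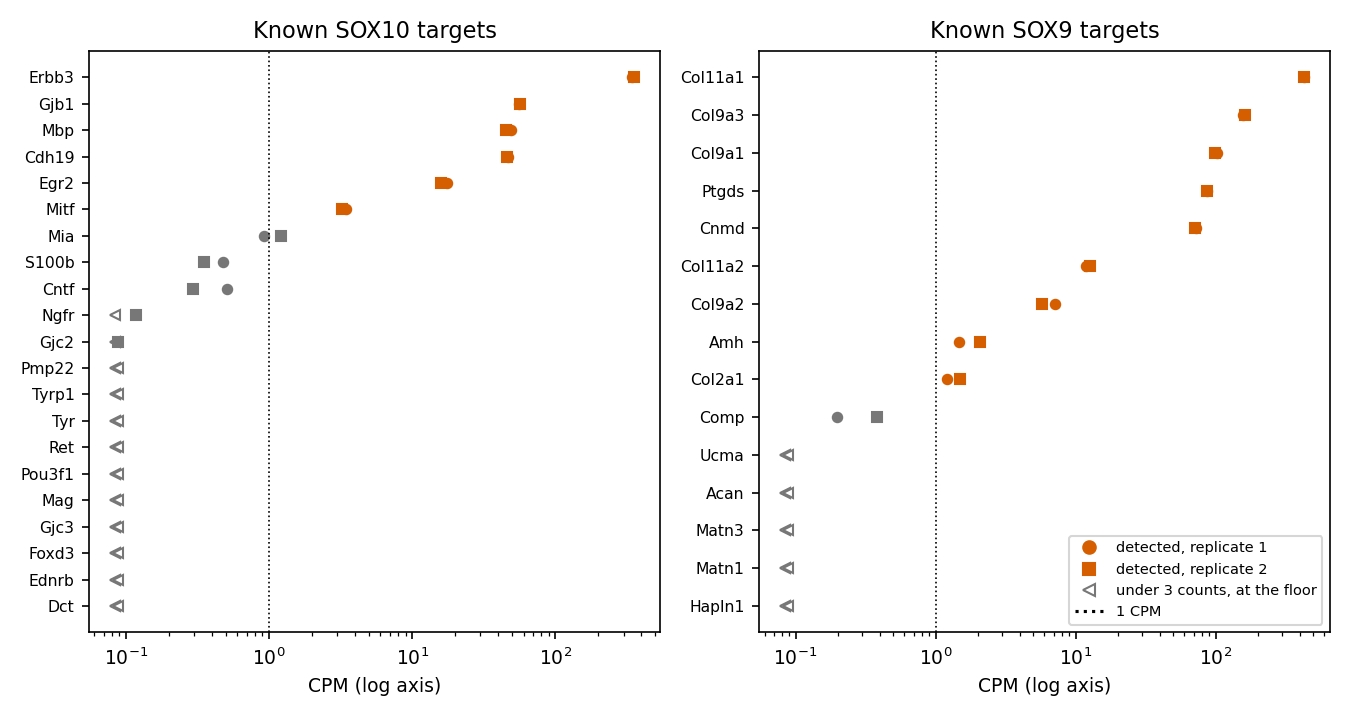
CPM (log axis) of genes known as SOX10 targets (left) and SOX9 targets (right) in replicate 1 (circles) and replicate 2 (squares), orange where detected, grey where not, and open triangles at the 3-count floor; the dotted line is 1 CPM. Of the SOX10 list 6 of 21 genes lie right of the line in both libraries and of the SOX9 list 9 of 15.

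Sox10 and Sox9 mark other cell types too, so markers of those types were examined. By the same rule 50.6% of all protein-coding genes were detected. All 5 epithelial markers were detected, from 684 ± 18.8 CPM for Krt8 to 1217 ± 15.2 CPM for Krt18, with Cdh1, Krt7 and Epcam between, summing to 4432 CPM in replicate 1 and 4289 in replicate 2. Of 8 basal and myoepithelial markers none was detected (summed 1.26 and 1.71 CPM), with Krt5 at 3 and 2 counts, Trp63 at 2 and 3, Krt14 at 0 and 3, Krt17 at 1 and 0, and Oxtr and Myh11 at 4 in each library. The contractile genes Acta2 (22 and 19 counts) and Cnn1 (9 and 23) were highest of these in CPM. Of 5 glial markers Cdh19 alone was detected (the list summed to 47.7 and 46.3 CPM), with S100b at 17 and 12 counts, Gfap at 5 in each library, and Olig2 and Mog at 0. Of 6 melanocyte markers Mlana (4.41 ± 0.846 CPM) and Pmel (1.60 ± 0.402 CPM) were detected (summed 5.13 and 6.90 CPM), and the pigment enzyme genes Tyr, Tyrp1 and Dct, with Slc45a2, were at 0. Of 5 cartilage markers Col2a1 alone was detected (summed 1.77 and 2.18 CPM, with Col10a1 at 18 and 23 counts), and the 4 others than Col10a1 are also on the SOX9 target list. None of 5 fibroblast markers was detected (Col1a1 at 37 and 18 counts, and Col1a2, Dcn, Lum and Pdgfrb at 0). None of 5 endothelial markers was (Pecam1 at 6 and 8 counts, Tek at 4 and 1, and Cdh5, Kdr and Emcn at 0), nor any of 4 leukocyte markers (Csf1r at 18 and 15 counts, Itgam at 0 and 1, and Ptprc and Cd3e at 0). The part of other cell types in the SOX levels was not tested. The glial and melanocyte lists share Cdh19, S100b, Dct, Tyr and Tyrp1 with the SOX10 target list.

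Among 44 genes with an HMG box, the 20 SOX genes and 24 of other families, Sox10 had the highest level per length. The other families were detected widely, with 20 of 24 genes (83.3%, beside 50.6% of all protein-coding genes). They were led by the histone chaperone gene Ssrp1 (55.8 ± 2.37 CPM per kb) and the chromatin protein genes Hmgb1 (42.8 ± 1.32) and Hmgb2 (27.4 ± 1.40). The ribosomal RNA gene activator Ubtf (22.9 ± 0.410) came next. Sox10 exceeded Ssrp1 by a factor of 3.13 ± 0.0412 and Hmgb1 by 4.07 ± 0.00540 per exonic length. Over Hmgb1 the factor depended on the length, with 2.53 ± 0.00335 per longest transcript and 1.29 ± 0.00171 per coding length. Tox, Tox3 and Hmgb4 had no count. Of 31 other transcription factor genes of mammary epithelium 22 were detected (71.0%, beside 50.6% of all protein-coding genes). Pgr, Tbx3, Snai2, Spdef and Tfap2b had no count. Set among these 31 factors, Sox10 took place 3 of 32 per exonic length. Cebpb (208 ± 14.5 CPM per kb) and the AP-2 factor gene Tfap2c (180 ± 4.81) were higher, and the forkhead gene Foxi1 (119 ± 2.74) and Id2 (102 ± 0.520) followed. The levels of Tfap2c and Sox10 overlapped over the libraries, with a ratio of Sox10 to Tfap2c of 0.968 ± 0.00261 within libraries. With coding length Cebpb lay below Sox10, at a factor of 0.925 ± 0.0374. Sox10 exceeded Elf5, another of these factors, by 3.72 ± 0.0725 per exonic length and by only 1.05 ± 0.0204 per coding length. The place of Sox10 among these factors with coding length was not computed.

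Genes of proteins that work with SOX factors were examined by list. All 18 co-factors and regulators were detected, where 50.6% of all protein-coding genes were. Their median log2(CPM + 1) was 6.68, against 1.22 over all protein-coding genes. Highest per length were the importin gene Kpnb1 (73.1 ± 0.311 CPM per kb), whose protein carries SOX proteins into the nucleus, the exportin gene Xpo1 (43.2 ± 0.325), the chromatin remodeller gene Smarca4 (38.0 ± 0.963) and Usp7 (25.3 ± 0.546), a deubiquitinase gene. Of 16 genes of partner proteins 7 were detected (43.8%, beside 50.6% of all protein-coding genes). Ctnnb1, the beta-catenin gene, stood at 272 ± 5.38 CPM per kb, above Tfap2a (19.4 ± 0.0855), Gata4 (5.83 ± 0.175) and Egr2 (4.93 ± 0.353), the myelination factor gene that acts with SOX10 in Schwann cells. Olig1, Olig2, Nkx2-2, Pax3 and Pou3f1, which are known from oligodendrocytes, Schwann cells or melanocytes, had no count.

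No measured gene near Sox10 reached its level per length. Of 31 other protein-coding genes lying at least in part within 500 kb of it 24 were detected, where 50.6% of all protein-coding genes were. H1f0, a linker histone gene, was highest of the 31 at 108 ± 2.31 CPM per kb. The nearest on the low-coordinate side were Polr2f (31.1 ± 0.789 CPM), a subunit gene of RNA polymerase II, 1700088E04Rik (2.66 ± 0.0488 CPM) and Micall1 (47.0 ± 0.594 CPM). On the other side were Pick1 (70.8 ± 1.68 CPM), Slc16a8 (4.34 ± 0.905 CPM) and Baiap2l2 (0.0996 ± 0.0575 CPM). Sox9 and Sox4 each had 1 other protein-coding gene in such a window, Slc39a11 at 3.56 CPM per kb and Cdkal1 at 2.27, both below the SOX gene beside them, and Sox11 and Sox2 had none.

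Around Sox12 a block of genes had no counts. From Nrsn2 to the antisense gene 1700030C14Rik, 19 consecutive genes of the table over 286 kb (chromosome 2, 152368755 to 152654330), 17 of them protein-coding, had 0 counts in both libraries, except for 1 count of the defensin gene Defb21 in replicate 1. This block was chosen after its values were seen. It holds Sox12, Zcchc3, a zinc finger gene, and a cluster of beta-defensin genes, which are known from the epididymis. The flanking genes were detected, with Trib3 at 45.6 ± 2.69 CPM (1692 and 1481 counts) on one side and H13 at 74.1 ± 2.46 CPM (2702 and 2453 counts) on the other. Sox2 also lay in a run of genes near 0, but of its 12 genes only 1 was protein-coding, against 17 of 19 around Sox12. The Sox2 run spanned 1368 kb, each gene with at most 1 count. Its flanking genes were Dnajc19 (732 and 721 counts) and Atp11b (4337 and 3993). Zero counts in both libraries were found for 12710 of all 31017 genes and for 6840 of 21721 protein-coding genes. How often runs of such length occur was not tested.

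**Figure D5:**
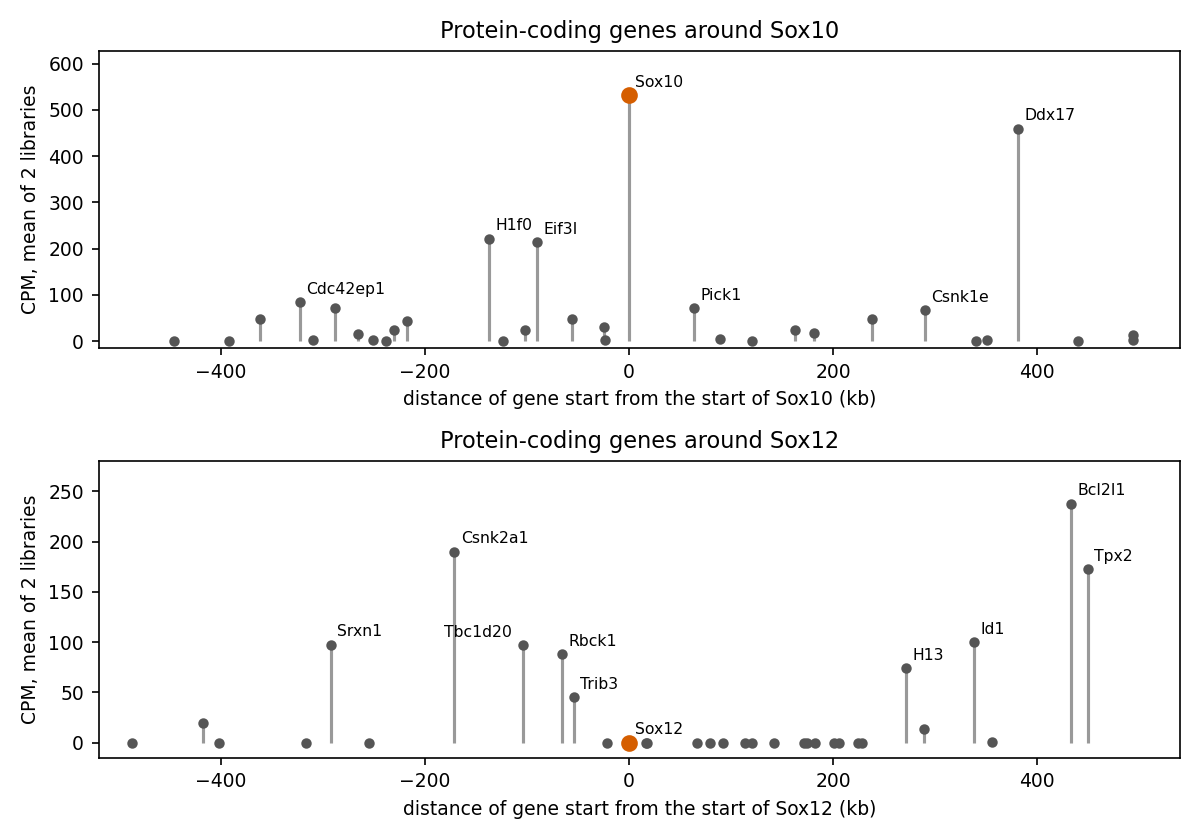
Mean CPM over the 2 libraries of protein-coding genes within 500 kb of the start of Sox10 (top) and of Sox12 (bottom), against the distance of each gene's start in kb; the named member is orange. Sox10 at 532 CPM stands above all its neighbours, and Sox12 lies in a stretch at 0 between Trib3 at 45.6 CPM and H13 at 74.1 CPM.

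Promoter sequence of 300 bases (250 before to 50 after the start, RefSeq, GRCm38.p6) was matched for 8 of the 10 members. Sox12 and Sox4 are shown, since they are the undetected and the highest SoxC gene, with each CG dinucleotide in capitals.
Sox12 (chr2:152397997-152398296, minus strand): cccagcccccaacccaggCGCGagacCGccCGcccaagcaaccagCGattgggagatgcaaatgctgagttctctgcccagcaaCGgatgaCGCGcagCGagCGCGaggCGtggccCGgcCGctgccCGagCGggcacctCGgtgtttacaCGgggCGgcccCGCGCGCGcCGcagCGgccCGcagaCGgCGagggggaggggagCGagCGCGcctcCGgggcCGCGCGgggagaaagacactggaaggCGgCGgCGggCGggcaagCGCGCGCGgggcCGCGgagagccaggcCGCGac
Sox4 (chr13:28953650-28953949, minus strand): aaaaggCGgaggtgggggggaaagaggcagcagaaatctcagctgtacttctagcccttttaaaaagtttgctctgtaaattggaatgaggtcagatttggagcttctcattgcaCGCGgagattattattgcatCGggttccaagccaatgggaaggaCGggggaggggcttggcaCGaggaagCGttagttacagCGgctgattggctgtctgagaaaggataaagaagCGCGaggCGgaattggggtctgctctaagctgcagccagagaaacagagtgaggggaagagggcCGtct
The Sox12 window holds 47 CG dinucleotides, more than 98.6% of 32851 promoter windows, whose median is 7, and the Sox4 window holds 12. Of 360 measured protein-coding genes with at least 47 in a window, 296 were detected (82.2%) and 34 had no count (9.44%), so Sox12 was among the few of these genes without a count. Of the 9454 genes with at least 12, 78.8% were detected and 9.93% had no count. Of all 16401 protein-coding genes with a promoter window, 53.3% were detected and 29.9% had no count. Among the other members, Sox13 had 40, Sox2 27, Sox8 and Sox11 21 each, and Sox5 3, and the 6 windows of Sox6 held 2 to 13. The only Sox5 window (chr6:143947057-143947356, minus strand) lies inside the gene, which begins at 144781977, so it is not the window of that outermost start. Both members near 0, Sox12 and Sox2, have more CG in this window than Sox4. So do the detected members Sox13, Sox8 and Sox11 and the highest of the Sox6 windows, so this does not set the members near 0 apart. The SOX motif letters ACAAAG or ACAATG, on either strand, occurred in 7 of the 13 member windows, 5 of them Sox6 windows, and in 28.6% of all windows. The Sox12 and Sox4 windows hold neither.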

How the data were processed

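Polyadenylated RNA of TUBO cells was sequenced in 2 stranded libraries, per the labels. The authors deposited raw counts per gene symbol; the submitters' processing notes list the build mm10 and, without saying what each did, featureCounts, STAR 2.7.9a, Cell Ranger 3.0.0, FastQC 0.11.9 and R 4.1.1. The sources used here do not give the annotation, the strand option or the treatment of multi-mapping reads, so counts of overlapping genes are uncertain. Both columns were assigned by replicate number.

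CPM were computed with TMM scaling (edgeR 4.0.16, R 4.3.3). Exonic, longest-transcript and coding lengths came from GENCODE M21 (GRCm38), where 98.1% of symbols had a single match. Genes kept by filterByExpr (13336) were tested between libraries with a two-sided exact binomial test and Benjamini-Hochberg adjustment. That test was run beforehand on simulated counts, where its false calls were held to a limit only without spread beyond counting error. The alternatives were edgeR's exact test and DESeq2 1.42.0 size factors. Wilson and Poisson intervals (95%) and the 3-count floor cover counting error only, since reads carry no molecular identifiers. An exact sign test over 2 libraries cannot go below p = 0.5, so levels carry no p-value.

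The members, the 28 gene lists and their markers were chosen with earlier results of these data known. Some genes of these lists are not reported here and were left out of the list counts. Named are all members, the 4 highest genes per length of each list (all of lists up to 8 genes), genes at 0 where a list has 6 or fewer, and the 3 nearest genes on each side of Sox10. With 1 group, no gene was named for a likeness to a member.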

Additional observations from a re-analysis of the deposited data

How the results depend on the processing

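The count of 8 detected members was the same with total counts, DESeq2 or upper-quartile factors, with minimums of 0.5, 2 and 5 CPM, and without replicate 1 or 2. The Sox10 share of family counts was 57.5% undivided, 70.1% per exonic length, 70.4% per longest transcript and 59.0% per coding length, and 57.2% to 57.7% with each library left out in turn. The ratio of Sox10 to Sox9 was 9.79 per exonic length, 10.7 per longest transcript, 7.86 per coding length and 7.22 undivided, and 9.72 to 9.86 with each library left out. Of the 8 places in the order of members by mean level, 4 were the same with coding length and 3 with no division. All 8 were the same with the longest transcript and without either library. With the longest transcript, however, the ranges of Sox11 and Sox6 over the libraries overlapped, at a factor of 1.07 ± 0.106. Genes differing between the libraries numbered 1084 in the exact binomial test and 19 in edgeR's exact test. Of binomial calls 45.1% were higher in replicate 2 with TMM, 28.9% with total counts and 37.7% with DESeq2 factors; the calls of Sox10, Sox4 and Sox6 held under all 3 and were lost in edgeR's exact test (adjusted p 1, 0.996 and 0.742). The uncalled log2 ratios of Sox8 (0.0033) and Sox13 (0.0047) changed sign to -0.0122 and -0.0109 with total counts and to -0.00236 and -0.000998 with DESeq2 factors. Leaving Gm26917 and Gm42418, 2 abundant genes, out of the totals put Sox10 at 594 CPM and Sox9 at 82.3. At a minimum of 5 CPM, 3 neural crest factors were detected in place of 8, 1 SOXC target in place of 2 and 1 SOX gene outside the set in place of 2. No paired analysis was possible because there is 1 group. Counting error limits small differences of well-detected members too: the log2 ratio of Sox5 (-0.14) was not called and the smaller one of Sox10 (-0.06), at more counts, was.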

Other observations

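Transcription factors of the neural crest, the embryonic tissue in which Sox10 is best known, were detected in 8 of 17 cases (47.1%, with 50.6% of all protein-coding genes detected). The LIM-domain gene Lmo4 (71.3 ± 2.83 CPM per kb) and Tfap2a (19.4 ± 0.0855) were highest, followed by Twist1 (8.72 ± 0.319) and Id3 (1.40 ± 0.0872). The remaining 9 genes had no count. Lmo4 and Tfap2a are also on the list of mammary epithelial factors.

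Of 11 pluripotency factors that act with SOX2, none was detected (beside 50.6% of all protein-coding genes), and 7 had no count. Pou5f1 had 5 counts in replicate 1 and 0 in replicate 2, Esrrb 0 and 2, and Klf4 and Prdm14 1 and 0 each.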
